A study of Mus musculus with 2 samples.

Results

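CTCF summits on chromosomes 1 to 19 that had 2 or more non-overlapping CTCF motif matches within 150 bp numbered 1005 of 33226, or 3.02% (95% Wilson interval 2.85 to 3.21). The deposited list held 33788 summits in all. A match was a 19-base stretch, on either strand, that scored at p 1e-05 or better (13.047 bits) against a matrix built from 192 CTCF sequences that the study listed at RAD21 sites. No match was found at 9116 summits and 1 match at 23105. Of the 1005 sites, 964 had 2 matches, 31 had 3, 4 had 4, 5 had 5 and 1 had 7. Tag counts and heights were not used to choose them.

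The cells were mouse R1/E embryonic stem cells (ESCs) that stably carried a bacterial artificial chromosome (BAC) with CTCF fused to a LAP tag containing GFP. The tagged protein was thus made from added gene copies, in drug-resistant cells sorted for GFP, and its occupancy stands in for that of the endogenous factor. Chromatin fixed with 1% formaldehyde was precipitated with a goat antibody to GFP (the CTCF library, 8391191 tags of 35 bases) or with goat IgG as isotype control (the IgG library, 7988889 tags). Each antibody had 1 library, so no value has a replicate check, and intervals cover counting error or the spread over sites in these libraries alone.

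CTCF is a DNA-binding protein with a row of zinc fingers that reads a long, asymmetric motif, so that each binding site has a direction. It is known for its role in insulators and, with the cohesin complex, in holding the bases of chromatin loops, where motifs of distant sites usually point toward each other. Clusters of CTCF motifs are known from imprinting control regions and other insulators. Here, orientation describes neighbouring matches under 1 summit and not the distant anchors of a loop.

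The sites with the most matches show the arrangement most directly. The sequences are given on the plus strand of the mm9 build, with the matches in capitals. They are 4 of the 5 sites with 5 matches, taken by number of matches and then height.
exon of Gm16230, chr10:127111854-127112116: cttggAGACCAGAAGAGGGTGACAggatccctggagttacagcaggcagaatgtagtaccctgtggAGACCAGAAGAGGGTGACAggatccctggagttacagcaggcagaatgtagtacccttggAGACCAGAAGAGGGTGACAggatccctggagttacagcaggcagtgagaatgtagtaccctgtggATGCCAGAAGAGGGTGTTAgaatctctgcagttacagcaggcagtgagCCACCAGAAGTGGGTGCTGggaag
intron of Erc2, chr14:28617243-28617459: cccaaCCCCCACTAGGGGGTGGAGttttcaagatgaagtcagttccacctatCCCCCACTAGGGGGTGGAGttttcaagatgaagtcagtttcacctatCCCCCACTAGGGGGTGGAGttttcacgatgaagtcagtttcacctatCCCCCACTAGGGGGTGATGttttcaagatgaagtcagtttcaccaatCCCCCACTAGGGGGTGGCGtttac
between genes near Fam69b, chr2:26502496-26502676: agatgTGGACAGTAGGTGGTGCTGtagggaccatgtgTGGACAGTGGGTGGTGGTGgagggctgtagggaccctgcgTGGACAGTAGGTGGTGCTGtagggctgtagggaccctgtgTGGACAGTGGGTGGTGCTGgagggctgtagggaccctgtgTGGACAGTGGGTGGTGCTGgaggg
intron of Slit3, chr11:35481030-35481170: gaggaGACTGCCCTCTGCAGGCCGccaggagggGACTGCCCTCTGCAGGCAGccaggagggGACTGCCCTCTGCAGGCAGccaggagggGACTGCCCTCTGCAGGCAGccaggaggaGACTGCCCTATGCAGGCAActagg

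The site in Gm16230, 6349 bp upstream of the nearest gene start, that of Nab2, had 5 plus-strand matches with centres 61, 60, 65 and 48 bp apart. Its height was 51 tags, with 63 CTCF and 0 IgG tags within 150 bp of the summit. In Erc2, which encodes a presynaptic scaffold protein, 5 plus-strand matches lay 47 bp apart at every step, and the height was 36 tags (48 CTCF and 0 IgG tags). Near Fam69b the steps were 32, 40, 40 and 40 bp and the height was 27 tags (31 CTCF and 2 IgG tags). The Slit3 site, in the gene of a secreted guidance ligand, had 5 minus-strand matches 28 bp apart and a height of 20 tags (24 CTCF and 0 IgG tags). All 4 arrays were head to tail. Steps were equal in the Erc2 and Slit3 arrays and unequal in those in Gm16230 and near Fam69b.

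Pairs in the 3 orientations are shown next, since direction, spacing and likeness of the matches are described from them. The first is the tallest pair in the same orientation, the next a pair that differs at no base of the match, and then come the tallest convergent pair and a tall divergent pair.
same, intron of Kif17, chr4:137838949-137839019: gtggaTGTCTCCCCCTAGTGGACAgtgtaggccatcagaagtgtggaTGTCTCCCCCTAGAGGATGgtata
same, intron of Ahi1, chr10:20686030-20686122: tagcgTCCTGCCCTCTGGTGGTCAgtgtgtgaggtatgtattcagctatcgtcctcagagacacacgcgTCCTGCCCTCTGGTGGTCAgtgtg
convergent, intron of Fam129b, chr2:32768108-32768172: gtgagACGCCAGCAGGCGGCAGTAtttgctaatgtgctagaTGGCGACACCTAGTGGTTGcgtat
divergent, intron of Gm20388 near Nup133, chr8:126448737-126448870: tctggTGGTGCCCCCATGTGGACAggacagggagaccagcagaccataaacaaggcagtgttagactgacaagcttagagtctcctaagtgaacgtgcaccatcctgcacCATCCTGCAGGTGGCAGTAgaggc

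The Kif17 pair, in the gene of a kinesin motor, lay 42 bp apart on the minus strand. It reached 63 tags (68 CTCF and 5 IgG tags), the highest value among sites with 2 matches. The Ahi1 pair, in a gene of the primary cilium, was identical over all 19 bases of the match and over 57 of 59 bases with 20 flanking bases on each side. Its centres were 64 bp apart and its height was 24 tags (32 CTCF and 1 IgG tags). The Fam129b pair pointed inward over 36 bp at 52 tags (64 CTCF and 0 IgG tags). The pair 24394 bp downstream of the start of Nup133, which encodes a nuclear pore protein, pointed outward over 105 bp at 47 tags (58 CTCF and 3 IgG tags).

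One spacing recurred far more often than any other, a convergent pair with centres 38 bp apart. The 3 tallest, from 3 places, are printed. All 3 have the same bases printed before the left match. The sequences near Osbpl11 and in Zfp668 also read alike between the matches and after them, and that of Gm15868 less so.
between genes near Osbpl11, chr16:33167807-33167873: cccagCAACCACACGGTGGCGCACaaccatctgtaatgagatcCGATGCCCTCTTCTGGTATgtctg
promoter of Gm15868, chr16:14311642-14311708: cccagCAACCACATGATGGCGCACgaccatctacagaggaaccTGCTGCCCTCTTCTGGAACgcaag
intron of Zfp668, chr7:135014094-135014160: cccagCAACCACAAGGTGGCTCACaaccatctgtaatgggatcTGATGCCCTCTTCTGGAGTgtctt

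Sites with 2 or more matches were taller than sites with 1 match. The deposited summit height, the number of overlapping tags at the summit, had a median of 17 (order-statistic interval 16 to 18) against 14 (13 to 14) with 1 match and 11 (10 to 11) with none. The ratio of geometric means to sites with 1 match was 1.26 (1.23 to 1.3). The distributions overlapped widely, since the heights ran from 6 to 86 tags with 2 or more matches and from 6 to 89 with 1. The middle 50% of values ran from 12 to 24 and from 11 to 17 tags. The upper end differed more: 154 of 1005 sites (15.3%) reached 30 tags, against 424 of 23105 (1.84%) with 1 match, a difference of 13.5 percentage points (Newcombe interval 11.4 to 15.9). Beyond 2 matches the median was not higher. It was 17 tags (16 to 17) with 2 matches and 17 (12 to 26) at the 41 sites with 3 or more. The 31 sites with exactly 3 had 14 (11 to 23). Of the sites with 3 or more, 26.8% reached 30 tags, against 14.8% with 2.

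**Figure D1:**
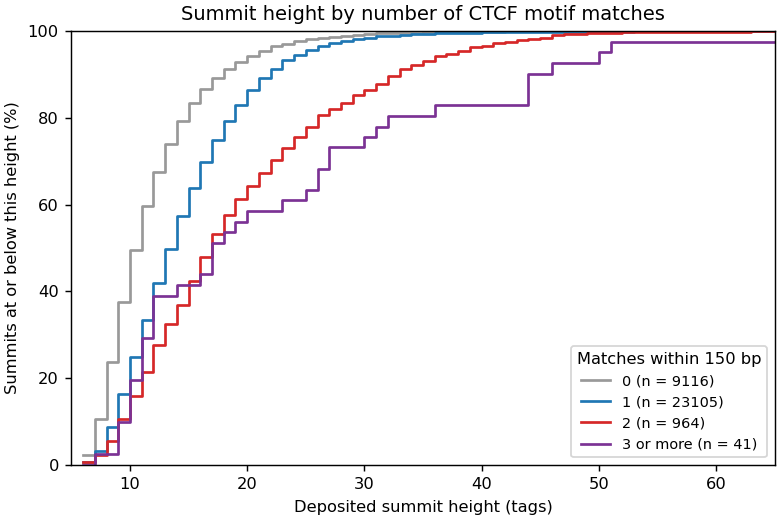
Cumulative percentage of summits (vertical axis) at or below each deposited height in tags (horizontal axis, drawn to 65 tags), with 1 step line for each number of matches. The lines for 2 and for 3 or more matches lie to the right of that for 1 match, mainly in the upper part, where 15.3% of sites with 2 or more matches and 1.84% with 1 match reach 30 tags.

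Read the other way, the share of summits with 2 or more matches was higher in each taller one of the 6 height classes. It was 1.54% (1.32 to 1.79) at 6 to 10 tags, 3.43% (3.02 to 3.91) at 16 to 20 tags and 6.29% (5.53 to 7.14) at 21 to 30 tags. At 31 to 40 tags it was 22.7% (101 of 444, 19.1 to 26.9). Among the 99 summits of 41 to 89 tags it was 39.4% (39 sites, 30.3 to 49.2). The intervals of neighbouring classes did not overlap.

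**Figure D2:**
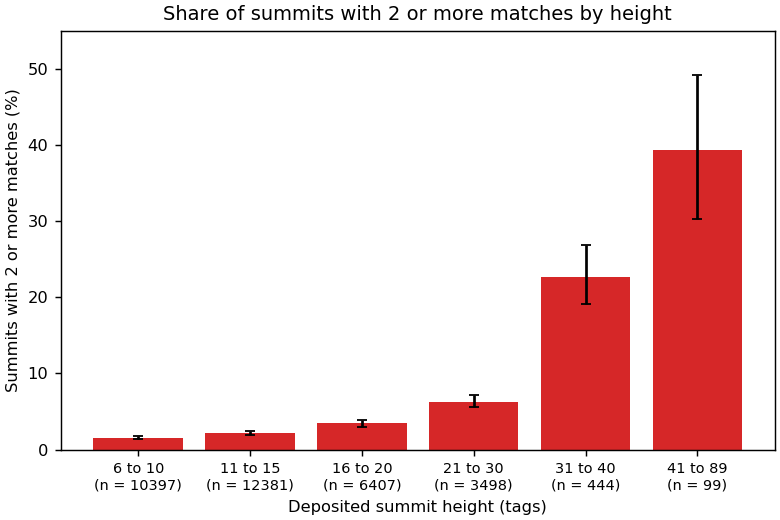
Percentage of summits that had 2 or more matches (bars, vertical axis) in 6 classes of deposited height (horizontal axis, with the number of summits), with 95% Wilson intervals. The share climbs from 1.54% in the lowest class to 39.4% in the highest.

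The other readouts of enrichment went the same way, though they rest on the same CTCF tags as the height and are not independent of it. Within 150 bp of the summits the 1005 sites held 22251 CTCF and 994 IgG tags. Scaled by total tags, CTCF exceeded IgG 21.3 times (20.0 to 22.7, exact interval), against 15.2 (15.0 to 15.3) with 1 match and 11.5 (11.3 to 11.7) with none. In a recount of these tags against local IgG rates (one-sided Poisson, p 1e-05), 940 of 1005 sites passed (93.5%), where 85.7% of all summits did. The difference from sites with 1 match (89.7%) was 3.84 percentage points (2.10 to 5.26). Peaks were wider, with medians of 940 bp (919 to 967) and 856 bp (852 to 860) and a ratio of 1.10 (1.07 to 1.12). At a match threshold of p 1e-04 the width ratio was 0.999 and the height ratio 1.04. Mean GC content of the window was 49.6% against 46.4%, a difference of 3.20 percentage points (2.81 to 3.58), and its part in the heights was not tested.

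The highest-scoring match differed little between the groups, with medians of 19.5 bits (19.2 to 19.8) and 19.1 bits (19.1 to 19.2). At equal highest score, in a least-squares fit over 10 score classes, the height ratio was again 1.26 (1.23 to 1.29). Across the classes it ran from 1.14 (1.05 to 1.25) in the fourth to 1.45 (1.33 to 1.58) in the highest. With 1 match, median height stayed at 13 or 14 tags in every class. The second match scored lower, at a median of 15.2 bits (15.1 to 15.3). Median height was 15 tags (14 to 16) in the 335 sites with the weakest second match, 17 (16 to 18) in the middle 335 and 20 (19 to 22) in the 335 with the strongest. Their highest scores also differed, with medians of 18.6, 18.8 and 20.9 bits. The 285 sites with a pair of matches at p 1e-06 had a median of 21 tags (19 to 22), the other 720 had 16 (15 to 17), and the 17100 summits with 1 match at p 1e-05 that also passed p 1e-06 had 14.

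**Figure D3:**
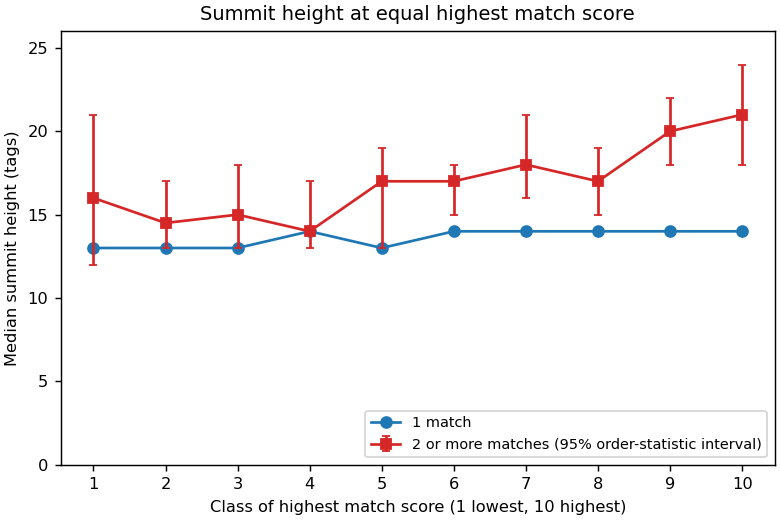
Median deposited height in tags (vertical axis) in 10 classes of the highest match score (horizontal axis), for summits with 1 match (circles) and with 2 or more (squares, with 95% order-statistic intervals). The squares lie above the circles except in the fourth class, where both are 14, and reach 21 in the highest class, where the circle is at 14.

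Second matches held the most common base less often at most positions, by amounts that differed. The most common base of the matrix at position 10, counted from the 5′ end of the motif, was present in 100% of highest-scoring and 99.2% of second matches, and at position 13 in 99.9% and 99.4%. At position 15 the shares were 85.4% and 69.7%, at position 12 they were 70.5% and 55.6%, and at position 2 they were 48.4% and 34.5%. Positions 7, 8 and 11 went the other way, with 42.7% of highest-scoring and 50.6% of second matches at position 11. Matches at summits with 1 match had 83.3% and 69.6% at positions 15 and 12. Since the threshold is on the summed score, a lower share somewhere in the second match follows from its lower score.

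At positions 2000 bp to either side of the summits, which served as background sequence, 5.60% of 66452 windows had a match and 91 (0.137%, 0.112 to 0.168) had 2 or more. Among windows with at least 1 match, 4.17% (3.92 to 4.43) had a further one at summits and 2.45% (2.0 to 2.99) at the background positions. The difference was 1.72 percentage points (1.12 to 2.24). Just inside the score threshold, the weakest second match had 13.049 bits at a summit of 18 tags. Just outside it, the strongest second match left out had 13.045 bits at a summit of 9 tags.

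Of the 964 pairs, 563 (58.4%, 55.3 to 61.5) had both matches in the same orientation. A further 230 (23.9%, 21.3 to 26.6) were convergent, with the left match on the plus strand, and 171 (17.7%, 15.5 to 20.3) were divergent. Of the same-orientation pairs, 49.6% were on the plus strand (45.4 to 53.7). At a match threshold of p 1e-04, where 5101 summits had 2 or more matches, same-orientation pairs were 45.6%, and at p 1e-06 they were 69.9%. Convergent pairs made up 57.4% of opposite pairs (52.5 to 62.1). Without the 38 bp spacing, an exclusion chosen after seeing the data, this was 52.2% (47.1 to 57.4), an interval that spans 50%. In the same selection same-orientation pairs were 61.1% (57.9 to 64.2). Among the 41 sites with 3 or more matches, 26 had every match in the same orientation. Pairs at the background positions comprised 52 same-orientation, 20 convergent and 16 divergent pairs. Same-orientation pairs were thus the most numerous class at these positions too. The pairs there were few, their share has no interval, and it was not tested against that at summits. The background positions were not screened for other summits.

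Median spacing between match centres was 79 bp (73 to 85) over all pairs, in a range of 19 to 278 bp where the window allows at most 282. Same-orientation pairs had a median of 80 bp (73 to 88), convergent pairs 52.5 bp (49 to 63) and divergent pairs 104 bp (92 to 118). Without the pairs at 38 bp the convergent median was 70 bp (58 to 82), still below the divergent interval. The most common same-orientation spacings were 59 bp (13 pairs), 47 bp (11) and 39 bp (10). Convergent pairs stood at 38 bp in 43 of 230 cases (18.7%, 14.2 to 24.2) and next at 49 bp in 9. At the background positions 8 of 20 convergent pairs (40%, 21.9 to 61.3) also stood at 38 bp, so this spacing was found away from summits too. No divergent spacing occurred more than 5 times.

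**Figure D4:**
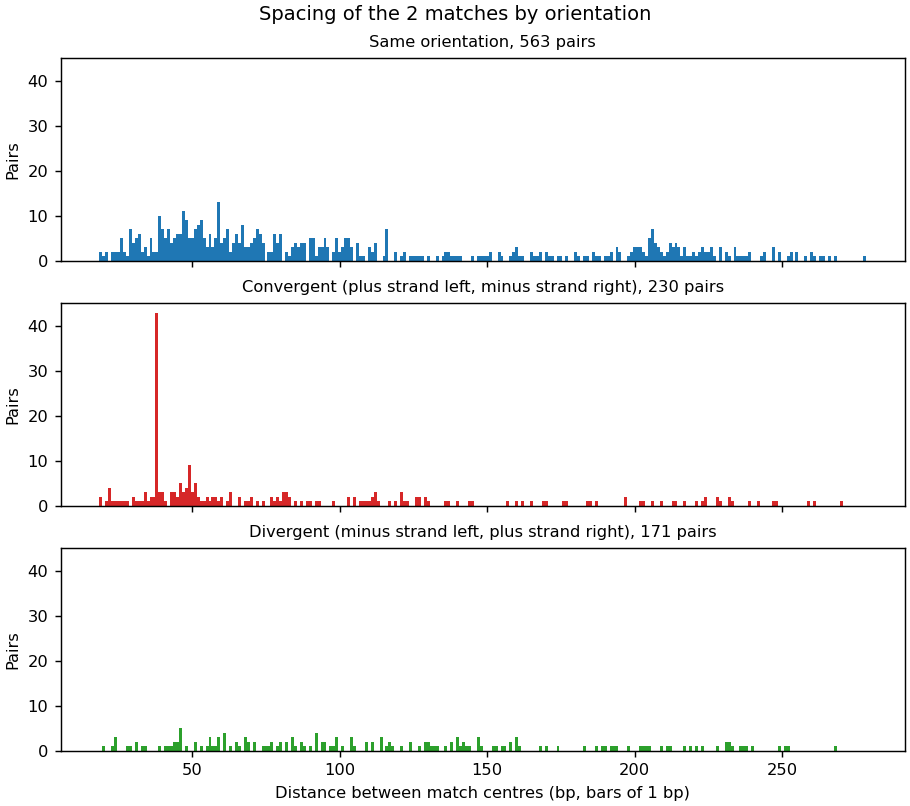
Number of pairs (vertical axis) at each distance between match centres in bp (horizontal axis, bars of 1 bp) for same-orientation, convergent and divergent pairs. The convergent panel has 1 tall bar of 43 pairs at 38 bp, and the same-orientation panel has a broad rise near 40 to 60 bp and another above 190 bp.

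Because the window has ends, fewer starts can hold a wide pair, and the number of further matches was therefore also divided by the starts available. The background positions had 1.02 matches per 10000 starts and strand (0.991 to 1.06), counted over all starts, whereas the rates at summits are for starts near another match. Same-orientation matches 40 to 59 bp away numbered 1.94 per 10000 starts on the 3′ side (1.54 to 2.40) and 1.43 on the 5′ side (1.10 to 1.83). At 130 to 189 bp they were at 0.520 (0.333 to 0.774) and 0.646 (0.472 to 0.865). At 190 to 229 bp they were at 2.77 (1.99 to 3.75) and 2.29 (1.69 to 3.02). Convergent matches at 30 to 39 bp, the class of the 38 bp pairs that also recurred at the background positions, were at 2.77 (2.13 to 3.55). Divergent matches at 30 to 39 bp were at 0.218 (0.0707 to 0.508). A pair wider than 150 bp can only be found where the summit lies near its middle, so the wide classes describe such summits alone.

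Heights differed between classes of spacing. Medians were 17 tags (17 to 18) for same-orientation, 15 (14 to 17) for convergent and 16 (16 to 19) for divergent pairs, and convergent pairs at spacings other than 38 bp had 17 (15 to 19). By spacing, medians were 14 (12 to 16) at 19 to 29 bp and 13 (12 to 15) at 30 to 39 bp. They were 20 (18 to 21) at 40 to 59 bp and 19 (17 to 21) at 60 to 89 bp. At 130 to 189 bp the median was 15 (13 to 16), and at 230 to 282 bp, where 57 pairs lay, it was 24 (19 to 31). Within same-orientation pairs alone the median was 20 (18 to 23) at 40 to 59 bp and 15 (12 to 16) at 130 to 189 bp, and these intervals did not overlap.

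The 43 convergent pairs at 38 bp lay on 17 chromosomes. Over a unit of 87 bases, 37 of the 43 agreed at 75% or more with a consensus built from these pairs, and 6 did not. Median identity was 85.1%, in a range from 36.8% to 93.1%, and other convergent pairs at 30 to 60 bp had a median of 36.8%. The sequence resembles the B2 short interspersed element of rodents, known as a carrier of CTCF motifs, which is background knowledge, since no repeat annotation was used here. The right-hand, minus-strand match was the stronger in 24 pairs, the 3 printed ones among them, and the left-hand match in 19. Heights of the 43 sites ran from 7 to 25 tags with a median of 11 (10 to 14). They held 584 CTCF and 31 IgG tags, a ratio of 17.9 (12.5 to 26.6). The recount was passed by 35 of 43, beside 85.7% of all summits, and the difference was not tested. The 3 printed sites had 25, 25 and 25 CTCF tags and 1, 0 and 0 IgG tags.

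Copies of the unit, taken as at least 75% agreement, were present at 107 of 1005 sites (10.6%, 8.89 to 12.7) and at 3.57% of summits with 1 match (3.33 to 3.81). They were at 0.790% of summits without a match and 2.19% of the background positions (2.08 to 2.30). The unit was defined from sites with 2 matches, so its share there is a description. Sites with a copy were lower in both groups, with medians of 11 against 18 tags among sites with 2 or more matches and 10 against 14 with 1 match. Without summits that held a copy, an exclusion added after seeing the data, the height ratio at equal highest score was 1.29.

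A related word recurred among all matches. Positions 4 to 15 of the match read CCAGAAGAGGGC in 238 of 2069 matches (11.5%) at the 1005 sites, in 16.1% of matches at summits with 1 match and in 24.9% of matches at the background positions. It was present in 1 or both matches in 31 of the 43 pairs at 38 bp. Summits with 1 match and this core had a median of 12 tags, against 14 for other cores. The core CCACAAGGTGGC made up 2.90%, 1.07% and 0.367% of the same 3 sets. Same-orientation pairs at 190 to 229 bp held the first core in 46 of 87 cases (52.9%, 42.5 to 63.0), against 62 of 476 at other spacings, a difference of 39.8 percentage points (28.9 to 50.4). This class of spacing was singled out after its values were seen.

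Matches of a pair were more alike in the same orientation. At least 15 of 19 bases were identical in 124 of 563 same-orientation pairs (22.0%) and in 15 of 401 opposite pairs (3.74%), a difference of 18.3 percentage points (14.3 to 22.2). In 11 pairs all 19 bases were identical. With 20 bases on each side included, 20 pairs agreed at 45 or more of 59 bases. All 20 were in the same orientation, 27 to 116 bp apart with a median of 62, and their median height was 25.5 tags (13 to 33). The 2069 matches comprised 1878 different words, and 78 words occurred at 2 or more places. The pair most alike, in an intron of Snx29, agreed at 58 of 59 bases over 57 bp at 13 tags (14 CTCF and 0 IgG tags). A pair in an intron of Med20, which encodes a subunit of the Mediator complex, agreed at 57 of 59 bases over 101 bp at 31 tags (37 CTCF and 0 IgG tags).

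Among the other tall pairs, same-orientation sites in an intron of Asb7 (223 bp apart) and near Sh3bp4 (190 bp) reached 51 and 49 tags. They held 52 CTCF with 1 IgG and 50 CTCF with 2 IgG tags. A convergent pair near Jph3, the gene of a junctional membrane protein, had 49 bp and 46 tags (48 CTCF and 0 IgG tags). A convergent pair in Fam65a had 119 bp and 47 tags (60 CTCF and 1 IgG tags). It lay in a stretch of chromosome 8 with raised IgG density that held 19 summits and no other site of this kind. Divergent pairs in an intron of Dido1 (223 bp) and in the promoter of Gm16172 (231 bp) reached 53 and 49 tags, with 57 CTCF and 0 IgG and with 51 CTCF and 2 IgG tags. The nearest possible spacing, 19 bp, was seen in the promoter of Fitm2 at 21 tags (25 CTCF and 0 IgG tags). It was also seen in an intron of Tmem51 and an exon of Dnahc17 at 13 and 16 tags, and on chromosome 14 at 10 tags. The widest, 278 bp, was in the promoter of Zdhhc18, the gene of a palmitoyltransferase, at 31 tags (32 CTCF and 0 IgG tags). The next, 270 bp, was in 9230104L09Rik at 37 tags (40 CTCF and 1 IgG tags).

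The site with 7 matches was the tallest of the 1005. It lay in an intron of Ctif on chromosome 18, had its matches on the minus strand at steps of 29 bp, and reached 86 tags (107 CTCF and 0 IgG tags). A convergent pair in an intron of Diap1 on the same chromosome, 122 bp apart, reached 46 tags (58 CTCF and 0 IgG tags).

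Summits did not sit on the matches. With 1 match the summit lay a median of 51 bp from the centre (50 to 52), and at a median of -14 bp when signed along the motif, where negative means the 5′ side. In pairs, the summit was nearer the higher-scoring match in 542 of 949 cases (57.1%, 53.9 to 60.2). The share was 49.0% (43.4 to 54.6) where the scores differed by under 2 bits, 61.4% (56.3 to 66.2) at 2 to 5 bits and 60.2% (54.4 to 65.8) at 5 bits or more. For pairs up to 150 bp apart, the summit lay between the centres in 51.2% of divergent pairs (42.5 to 59.8), 28.0% of convergent (22.1 to 34.7) and 33.7% of same-orientation pairs (29.2 to 38.4). Divergent pairs exceeded convergent pairs by 23.2 percentage points (12.3 to 33.6), though their spacings also differed. In same-orientation pairs up to 150 bp apart the summit lay 5′ of both matches in 40.5% (35.9 to 45.4) and 3′ of both in 25.8% (21.8 to 30.3). Over all same-orientation pairs the summit was nearer the 5′ match in 50.9% (46.8 to 55), and its median offset from the midpoint was -1.0 bp (-6.5 to 3.5).

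The same displacement was visible in the tags. Each tag was moved 92 bp toward the estimated middle of its fragment, and fragment centres were summed per 20 bp. The positions of dips and maxima depend on this shift. Around single matches they were sparse on the match (0.652 CTCF tags per site at -10 bp) and dense beside it (1.91 at -70 bp and 2.06 at 70 bp). Further maxima stood at -310 bp (0.947) and 310 bp (0.622). The IgG library had 1894 tags within 25 bp of the match centres and 4276 and 4609 tags within 25 bp of points 100 bp away on the 5′ and 3′ sides, so the sparse centre was present in the control too. Pairs 19 to 59 bp apart had their CTCF maximum near the midpoint (2.18). Pairs 100 to 159 bp apart had a single maximum of 3.05 there. In pairs 190 to 282 bp apart, centres were dense between the matches (3.58 at -30 bp and 2.99 at 30 bp from the midpoint, counted toward the higher-scoring match). They were sparse near the matches (0.237 at -110 bp and 0.249 at 130 bp), although the window itself places these summits near the middle. IgG tags of these pairs were also denser at the midpoint, with 51 tags within 25 bp of it and 28 within 25 bp of either match, a ratio of 3.64 per point where CTCF had 7.85. In pairs 100 to 159 bp apart the ratio was 0.809 for IgG and 2.11 for CTCF.

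**Figure D5:**
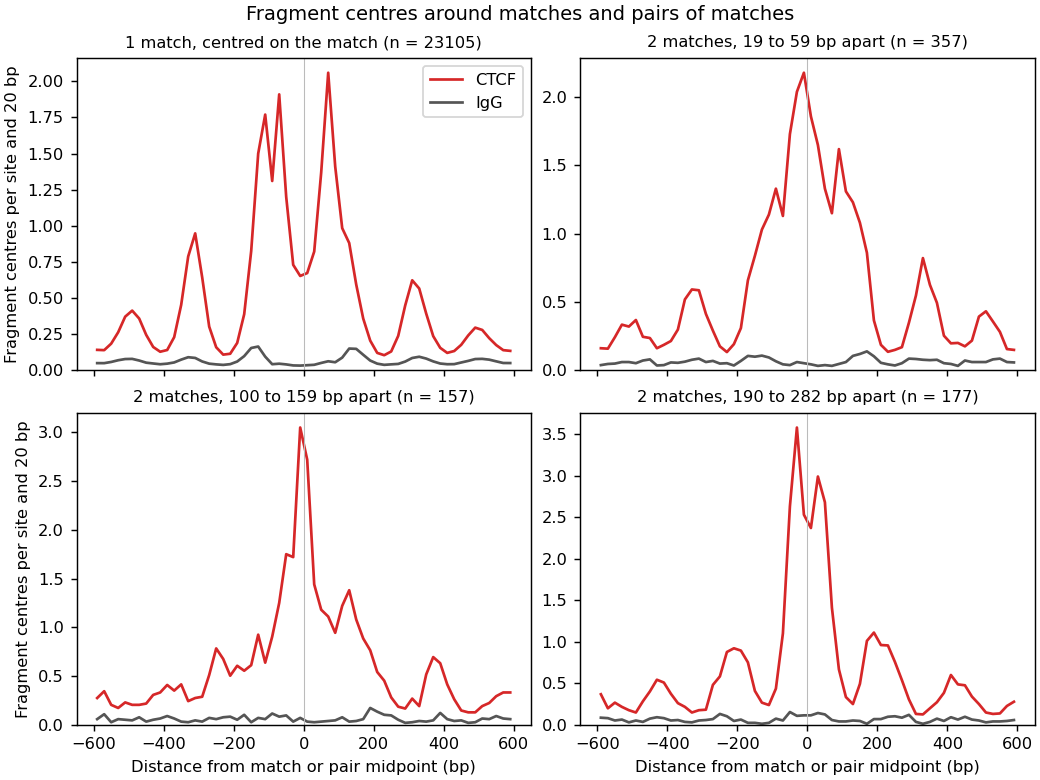
Fragment centres per site and 20 bp (vertical axes, each panel with its own scale) against distance in bp from the match, along the motif, or from the midpoint of the pair, with the higher-scoring match on the positive side (horizontal axis), for the CTCF and IgG libraries. The CTCF line dips on single matches, peaks at the midpoint of pairs 100 to 159 bp apart and has a double peak between matches 190 to 282 bp apart. The IgG line reaches at most 0.172 and also dips on single matches.

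By GENCODE gene models of the same build, 45.6% of the 1005 sites lay in introns (42.5 to 48.7) and 42.9% between genes (39.9 to 46.0). A further 6.57% lay in exons (5.20 to 8.27) and 4.98% in promoters, within 1 kb upstream of a gene start (3.79 to 6.50). Compared with summits with 1 match, the share between genes differed by -3.78 percentage points (-6.87 to -0.628). Differences in promoters (1.08, interval -0.125 to 2.63), exons (1.3, -0.104 to 3.03) and introns (1.39, -1.73 to 4.55) had intervals that spanned 0. Median heights were 16.5 tags in promoters, 17 in exons, 16 in introns and 18 between genes. No summits of the list were closer than 301 bp, so no match was counted at more than 1 site.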

How the data were processed

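CTCF ChIP-seq from a BAC-tagged R1/E ESC line was analysed from 2 libraries, CTCF and IgG; the label of the IgG library also calls it input DNA. The authors deposited a count of 1 on each tag's line, peaks with a MACS 1.4 score, and summits with the signal, the tag pileup height. The aligner is not given in the sources used here. The lowest deposited score was 50. Other assays were not analysed here.

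The matrix used 192 CTCF sequences from the listed rows of a shortened sheet of motifs at RAD21 sites, turned to the motif strand, with a pseudocount of 1 and background frequencies of 0.29 (A, T) and 0.21 (C, G). Whole matches within 150 bp of a summit were kept as the largest non-overlapping set. Genome and gene models were mm9 (NCBI m37). Tags were moved 92 bp, from a fragment length of 184 bp. That length was estimated from the distance between plus- and minus-strand tags at the highest-scoring peaks. The range searched did not reach the average of 500 bp that the paper gives for sonicated chromatin. CTCF to IgG ratios were scaled by total tags. The recount used the largest IgG rate over the genome, 1, 5 or 10 kb. Shares carry 95% Wilson intervals, differences of shares Newcombe intervals, medians order-statistic intervals. Named sites were those with the most matches, the 3 tallest of each orientation, the 3 most alike pairs and the extreme spacings; the 38 bp sites were added after seeing the data. Members and lists were chosen with earlier results of these data known. The code was tested on simulated data. Tools were numpy 2.4.6, pandas 2.3.3, scipy 1.17.1 and matplotlib 3.10.9 under Python 3.11.15.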

Additional observations from a re-analysis of the deposited data

How the results depend on the processing

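No paired analysis was possible because each antibody had 1 library. Over 14 results and 133 alternatives, 92 stayed within the interval of the reported value (numbers of sites, within 1.5 times) and 39 moved outside it. The other 2 fell on the other side of an even split or of a ratio of 1. Their causes were not tested.

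With a match threshold of p 1e-04 there were 5101 sites (15.4% of summits). Same-orientation pairs were then 45.6%, below 50%, and the peak width ratio was 0.999 (0.989 to 1.01), an interval that spans 1. The height ratio was 1.04 and at equal highest score 1.03. Median spacing was 68 bp, 47.7% of summits lay between the centres, 2.89% of pairs were alike, 88.3% of sites passed the recount and the CTCF to IgG ratio was 17.1.

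At p 1e-06 there were 285 sites (0.858%), with 69.9% same-orientation pairs, 52.4% convergent among opposite pairs, a median spacing of 89 bp, a height ratio of 1.43 (1.43 at equal score), a width ratio of 1.13, 57.4% of summits between the centres, a CTCF to IgG ratio of 25.1, 95.8% passing the recount, 36.8% alike and 49.8% between genes. A window of 100 bp gave 461 sites (1.39%), a median spacing of 53 bp, a ratio of 23.0, 95.9% passing and 16.8% alike. Peaks with a score of at least 100 gave a share of 3.91%, a width ratio of 1.05, a ratio of 24.0 and 99.4% passing. A recount at p 1e-10 passed 70.0%, scaling by tags outside peaks gave a ratio of 23.7, and a limit of 13 identical bases made 28.2% of pairs alike.

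Of 3 exclusions chosen after seeing the data, leaving out convergent pairs at 38 bp gave 52.2% convergent among opposite pairs. Leaving out summits with a copy of the unit gave a share of 2.79%, a height ratio at equal score of 1.29 and 95.1% passing. Leaving out the stretch of raised IgG density moved no result. Heights of a few tags limit what single sites can show.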
